A study of Mus musculus with 9 samples.

Results

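Neural crest cells of a Mef2c mutant that had been given endothelin-1 (ET-1) were compared with wild-type cells that had been given phosphate-buffered saline (PBS), in mouse embryos at embryonic day 9.5. Of 33495 genes in the deposited table, 10958 entered the comparison. These had an FPKM value (read counts scaled for transcript length and library depth) in all 3 groups of the study, at least 1 FPKM in either group of the pair, and a name that was not that of a pseudogene, a clone model, a family of small RNAs or a Hist gene. The question was which gene families stood at an ET-1-like level when Mef2c was mutated in the crest.

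The study held 9 samples from C57BL/6 embryos, 3 for each of 3 groups. Wild-type embryos received PBS or ET-1, and embryos in which Mef2c was conditionally mutated in the neural crest received ET-1. Embryos without head and tail recovered in culture for 1 h, and 10 µM ET-1 or PBS was then added. After a further 12 to 15 h the crest cells, which carried a genetic label, were sorted. The labels give neither the driver of the deletion nor the deleted exons, and they do not say whether a sample was 1 embryo or a pool, so p-values of the other pairs may reflect technical spread alone. The compared pair, 6 samples of the 9, differed in genotype and in treatment at the same time. A mutant given PBS was not analysed here, so a level set by the genotype alone and a level set by ET-1 cannot be told apart in the mutant.

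ET-1 is a secreted peptide that binds G protein-coupled receptors and, through phospholipase C, calcium and MAP kinases, alters transcription in the crest of the pharyngeal arches. MEF2C is a MADS-box transcription factor whose activity rises with calcium signals, and it is repressed by class IIa histone deacetylases. Many genes that respond within an hour of a growth signal, the immediate early genes, are read out by serum response factor (SRF), cyclic AMP response element binding protein and ternary complex factors of the ETS family. SRF and the YAP and TEAD factors further control genes of the actin cytoskeleton and the secreted CCN proteins.

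The table gave 1 FPKM value per group and no value per sample, so no level had a replicate error, and its p-values were for the other pairs of groups. Levels of this pair are therefore descriptions: a gene is called past 1.5-fold where the ratio of FPKM + 1 was at least 1.5 or at most its inverse, a scale that understates the change of low genes. Pooled reads recovered from the FPKM values came to 21507313 with PBS, 19801234 with ET-1 in wild type and 46930097 in the mutant, which made the mutant group 2.18 times as deep as the PBS group. Ranges in brackets after a fold are exact 95% counting intervals from these reads; amplified reads are not independent molecules and the spread between embryos is not in them. For the other pairs, Benjamini-Hochberg adjustment was applied to the unadjusted p-values of the authors' deposited table, over all genes with at least 1 FPKM in either group. Below, rose and fell with ET-1, and higher and lower against the ET-1 wild type, refer to an adjusted p under 0.05. Sets of 3 FPKM values are in the order PBS, ET-1 in wild type, and ET-1 treated mutant. A different mix of sorted cells and a different amount of RNA per cell cannot be told apart in such group values.

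Mef2c itself stood at 7.71 FPKM after PBS and 25.2 FPKM after ET-1, against 10.1 FPKM in the mutant. The mutant was thus at 1.31 times the PBS level (1.26 to 1.37) and kept 0.222 of the log2 rise seen in wild type, where Mef2c rose (adjusted p = 5.44e-12 by the authors' deposited table). Against the ET-1 wild type it was lower (adjusted p = 6.52e-11 by the authors' deposited table). FPKM covers the whole gene model, ENSMUSG00000005583 at chr13:83643194-83802927 in build mm9, and does not show which exons were lost. Reads lost with a deleted exon would lower this value. They cannot be told apart here from a lower level of the whole transcript.

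Across the 10958 genes, 455 were past 1.5-fold above PBS in the mutant (4.15%) and 179 past 1.5-fold below (1.63%). At 2-fold the numbers were 61 and 28. The median log2 ratio of all genes was 0.09, against 0.02 for ET-1 over PBS in wild type, and the central 90% of genes lay between -0.38 and 0.55. When each group was scaled to a median of 0, 298 genes stood above and 285 below, so the excess of higher genes depends on the scaling. The 25% and 75% quantiles were -0.08 and 0.26, so most genes of the mutant stood close to their unstimulated wild-type level.

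Most genes that ET-1 raised in wild type stood at or near the same level in the mutant. With ET-1, 60 of 15395 genes rose (0.39%), of which 55 were named genes and 52 had at least 1 FPKM in the pair compared here. A gene is called ET-1-like where its log2 ratio of mutant over PBS was at least 0.75 of its log2 ratio of ET-1 over PBS, and PBS-like where it was at most 0.25. Of the 52, 37 were ET-1-like (71.2%), 9 were between and 6 were PBS-like. Among all 810 compared genes that stood 25% or more above PBS with ET-1 (FPKM + 1), called or not, 60.1% were ET-1-like and 13.6% PBS-like. Both ratios share the PBS group, and the 52 genes were picked for a high ET-1 value, so the share of ET-1-like genes is a description. The median share kept was 0.906, the lowest was -0.637 for Cd200 and the highest 2.07 for Tcfap2b, and 36 of the 52 were past 1.5-fold above PBS. With the scaling to a median of 0, 30 of the 52 were ET-1-like and again 6 were PBS-like.

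**Figure D1:**
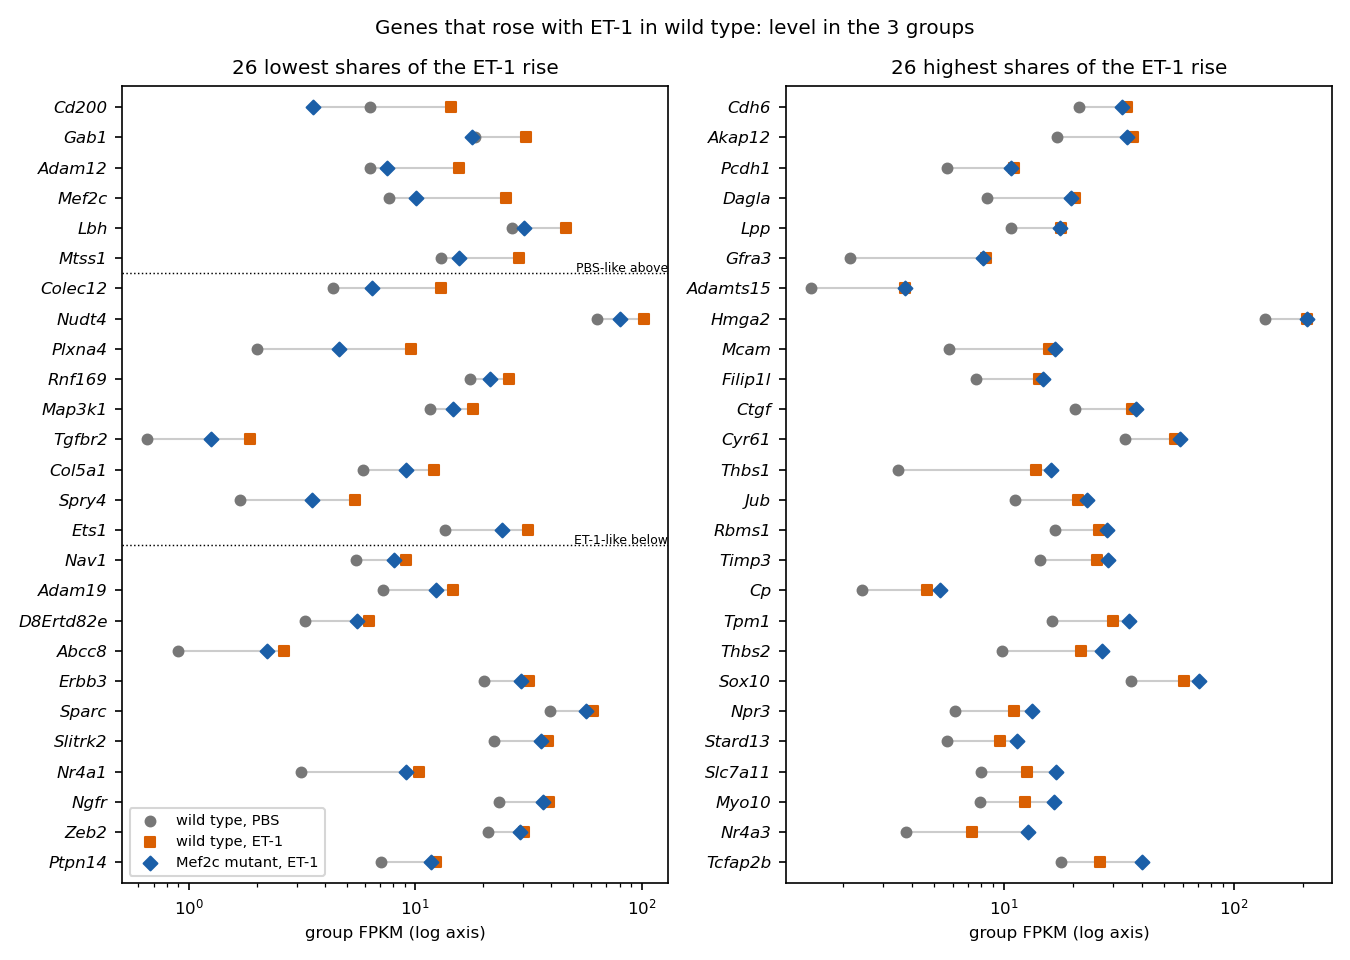
Group FPKM on a log axis of the 52 genes that rose with ET-1 in wild type, in wild type with PBS (circles), wild type with ET-1 (squares) and the ET-1 treated Mef2c mutant (diamonds), ordered by the share of the ET-1 rise that the mutant kept. Of the 6 genes from Cd200 to Mtss1, the diamond of Cd200 lies below its circle and those of the others lie near their circles. The diamonds of 37 genes from Nav1 to Tcfap2b lie near or beyond the squares.

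Transcription factors and receptors of the crest were among the ET-1-like genes. Sox10, the factor that specifies glia and pigment cells, stood at 35.7 FPKM after PBS and 61.0 FPKM after ET-1, against 70.9 FPKM in the mutant. Tcfap2b, which encodes the crest factor AP-2 beta, read 17.7, 26.4 and 40.03 FPKM in the same order and was higher in the mutant than in the ET-1 wild type, with adjusted p = 0.00499 by the authors' deposited table. The repressor gene Zeb2, at 20.9, 30.2 and 29.1 FPKM, stood just under its ET-1 level in the mutant. Ngfr, the low-affinity neurotrophin receptor, read 23.4 FPKM after PBS and 39.0 FPKM after ET-1, against 36.8 FPKM in the mutant. Erbb3, the neuregulin receptor of glial precursors, read 20.1, 31.7 and 29.2 FPKM. Gfra3, the artemin co-receptor of sympathetic precursors, read 2.15, 8.35 and 8.15 FPKM, a ratio of 3.79 to PBS (3.05 to 4.76). In all 6 genes the mutant stood above PBS, and close to or above the ET-1 wild type, although Zeb2 and Erbb3 were within 1.5-fold of PBS, and Ngfr was after scaling.

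The ET-1-like genes also included some that encode secreted, matrix and adhesion proteins, while Adam12, Cd200 and Col5a1, whose products lie at the surface or in the matrix, were PBS-like or between. Thbs1, which encodes the matricellular protein thrombospondin 1, went from 3.48 FPKM with PBS to 13.8 FPKM with ET-1 and stood at 16.1 FPKM in the mutant, 4.63-fold over PBS (4.20 to 5.11). Mcam, an adhesion molecule of the immunoglobulin family, read 5.82, 15.7 and 16.7 FPKM. Timp3, an inhibitor of matrix metalloproteases, read 14.4, 25.3 and 28.5 FPKM. In these 3 genes the mutant was the highest group. Sparc, a collagen-binding matrix protein, read 39.5, 60.8 and 57.1 FPKM, and the adhesion genes Cdh6 and Pcdh1 read 32.8 and 10.7 FPKM in the mutant against 34.2 and 11.1 FPKM with ET-1. Adamts15, a matrix protease, had 1.45, 3.74 and 3.71 FPKM. Of other kinds of gene, Slc7a11, the cystine transporter that supplies glutathione synthesis, and Myo10, a motor of filopodia, were above the ET-1 level without passing the test against it: they read 17.0 and 16.6 FPKM in the mutant, 12.7 and 12.4 FPKM with ET-1, and 7.99 and 7.89 FPKM with PBS.

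Signalling and cytoskeletal genes with an ET-1-like level included Akap12, a scaffold for protein kinase A, at 17.0, 36.4 and 34.3 FPKM for PBS, ET-1 and mutant. Dagla, which makes the endocannabinoid 2-arachidonoylglycerol, read 8.5, 20.4 and 19.7 FPKM. Npr3, the clearance receptor for natriuretic peptides, read 6.16, 11.1 and 13.3 FPKM. The oncofetal chromatin protein gene Hmga2, at 137, 208 and 209 FPKM, was the most abundant of the 52, and its ratio of 1.52 (1.5 to 1.54) was inside 1.5-fold when the groups were scaled. Nav1 and Adam19 were the ET-1-like genes nearest to the limit, with shares of 0.754 and 0.755, and Ets1 and Spry4 the nearest below it, with 0.673 and 0.599.

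The 6 PBS-like genes were Cd200, Gab1, Adam12, Mef2c, Lbh and Mtss1, of which Mef2c is the mutated gene itself. Each was lower in the mutant than in the ET-1 wild type, where 580 of 15459 genes were lower (3.75%) and 183 higher (1.18%). The class was set from the same group values, in genes picked for a high ET-1 level. A lower level than with ET-1 is thus largely built into it and is no separate support. Cd200, a surface glycoprotein that restrains myeloid cells, stood at 6.32 FPKM after PBS and 14.4 FPKM after ET-1, against 3.55 FPKM in the mutant, which put it below the PBS level (0.562, 0.503 to 0.629), and its adjusted p against ET-1 was 8.38e-13 by the authors' deposited table. Gab1, an adaptor of receptor tyrosine kinases, read 18.4, 31.0 and 17.9 FPKM and its interval of mutant over PBS held 1 (0.920 to 1.03). Adam12, a membrane-bound metalloprotease, read 6.29, 15.6 and 7.49 FPKM. Lbh, a transcriptional cofactor of limb and heart, read 26.7, 46.4 and 30.2 FPKM. Mtss1, an actin and membrane bending protein, read 13.1, 28.7 and 15.6 FPKM. Within the metalloproteases the relatives Adam12 and Adam19 thus parted: Adam19 kept 12.4 of 14.7 FPKM from a PBS level of 7.22 FPKM.

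Another 3 named risers were outside the comparison because both groups of the pair were under 1 FPKM, and all 3 were PBS-like. Tmem121, a transmembrane protein gene, read 0.266 FPKM after PBS and 3.88 FPKM after ET-1, against 0.230 FPKM in the mutant. Hs3st1, a heparan sulfate sulfotransferase, read 0.375, 3.67 and 0.669 FPKM, and Grik1, a kainate receptor subunit, 0.460, 2.76 and 0.75 FPKM. A filter on the pair alone thus removes genes that are low without ET-1 and low in the mutant. With a minimum of 1 FPKM in any of the 3 groups, a setting chosen after seeing the data, 37 of 55 were ET-1-like and 9 PBS-like.

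The 9 genes between the limits included receptors and a feedback inhibitor. Plxna4, a co-receptor for semaphorins, stood at 2.01 FPKM after PBS and 9.62 FPKM after ET-1, against 4.59 FPKM in the mutant, still 2.29-fold over PBS (2.07 to 2.53) although it was lower than with ET-1 (adjusted p = 1.09e-09 by the authors' deposited table). Ets1, an ETS factor of the cardiac crest, read 13.6, 31.7 and 24.1 FPKM, and Colec12, a scavenger receptor, 4.33, 13.1 and 6.47 FPKM. These 3 were the genes of the middle group that were also lower in the mutant by the test. The remaining 6, Nudt4, Rnf169, Map3k1, Tgfbr2, Col5a1 and Spry4, kept 0.491 to 0.599 of their rise. The authors' deposited list of 406 induced genes marks 73 as dependent on MEF2C, from these same samples, and the mark is on 0 of the 37 ET-1-like genes, 9 of 9 between and 6 of 6 PBS-like. A MEF2 motif is marked in the authors' deposited table for 28 of the 37 ET-1-like genes, 9 of the 9 between and 5 of the 6 PBS-like ones, beside 83.3% of the whole list.

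Genes that ET-1 lowered in wild type were mostly low in the mutant too. With ET-1, 22 of 15395 genes fell (0.143%), and 9 of them were named genes that entered the comparison. Of these 6 were ET-1-like, beside 36.1% of the 599 compared genes that stood at least 20% below PBS. Gli1, a transcription factor induced by hedgehog signals, read 4.83 FPKM with PBS and 1.72 FPKM in both ET-1 treated groups. Frem1, a basement membrane protein, read 3.21, 1.72 and 1.67 FPKM, and Nnat, an imprinted membrane protein of neural tissue, 109, 74.4 and 75.9 FPKM. Scd2 read 226, 169 and 148 FPKM. Cwc22 read 31.8, 19.7 and 14.3 FPKM, with 18.5% of its sequence shared with other genes. It was also lower in the mutant than in the ET-1 wild type (adjusted p = 0.0199 by the authors' deposited table). Dcx, the doublecortin gene of migrating neurons, was the PBS-like exception at 8.17, 4.69 and 8.77 FPKM, and it was higher in the mutant than in the ET-1 wild type with adjusted p = 2.05e-05 by the authors' deposited table. Afp, the plasma protein of yolk sac and liver, read 3.12, 0.452 and 0.180 FPKM, and the other plasma protein genes of its marker list, Alb, Apoa1, Apoa2 and Ttr, had no FPKM to compare.

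Of the gene lists with 5 or more compared members, apart from cell type markers, the highest median belonged to the EGR and NAB genes and the next to the CCN proteins and thrombospondins. The lists had been drawn up with earlier results of these data known, so a list is described by its count and median beside those of all genes.

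**Figure D2:**
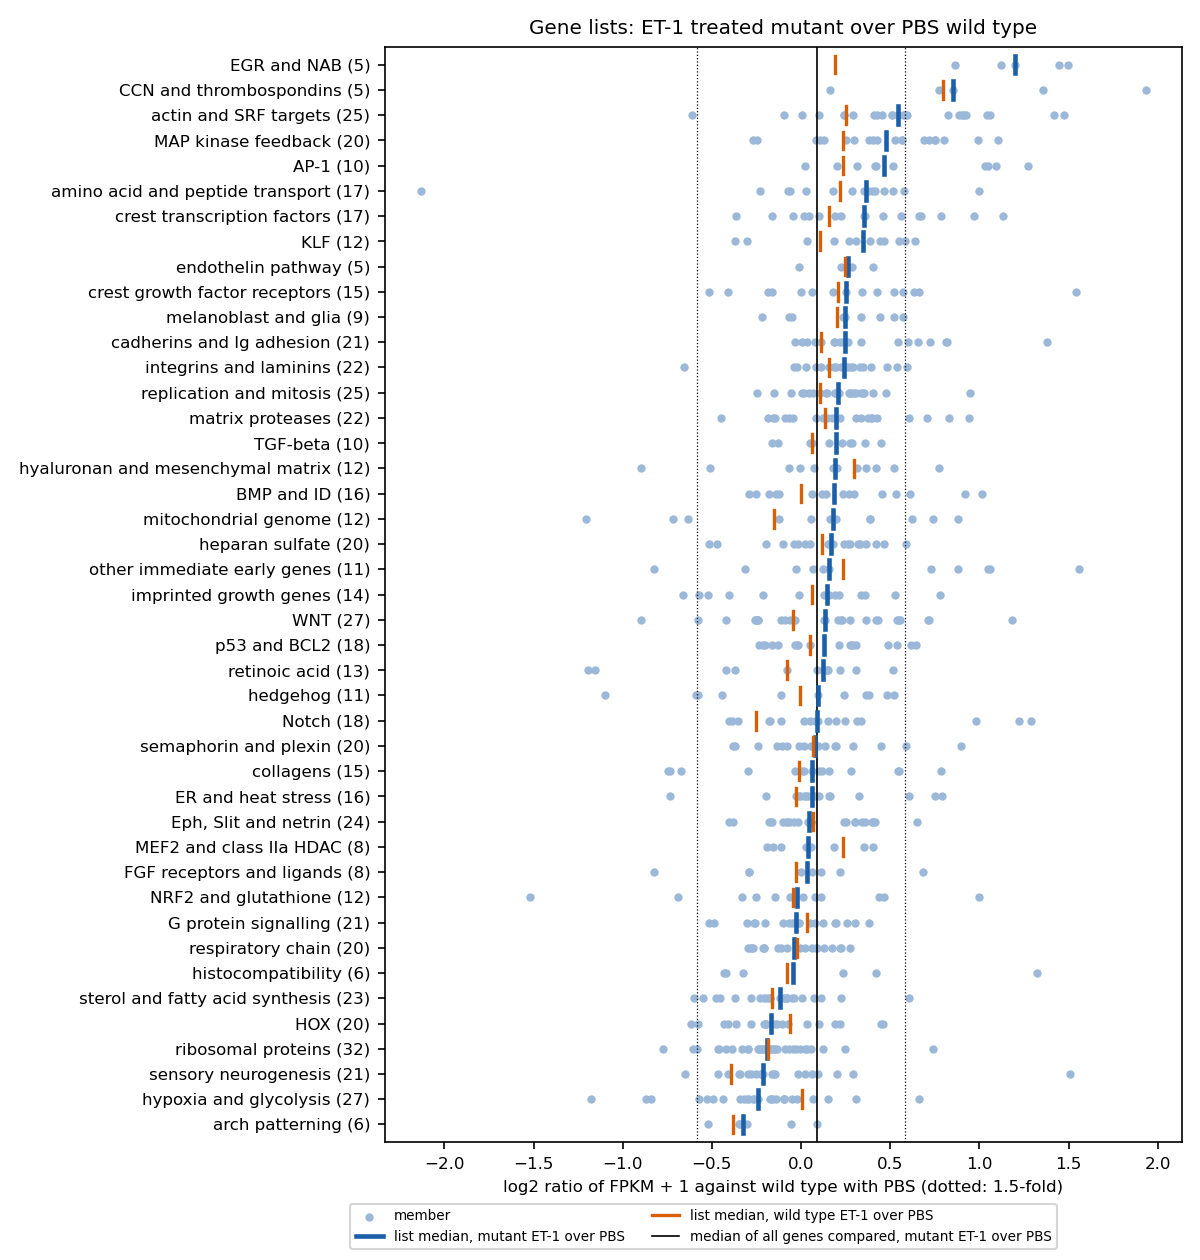
Log2 ratio of FPKM + 1 of the ET-1 treated mutant over the PBS wild type for each compared member (points) of the lists with at least 5 compared members, with the list median (blue bar), the list median of ET-1 over PBS in wild type (orange bar) and the median of all genes (line at 0.09). The EGR and NAB list stands at 1.2 in the mutant and 0.19 in the wild type with ET-1, and the CCN and thrombospondin list at 0.85 and 0.79.

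The EGR zinc finger factors and their NAB corepressors had the highest median among lists of 5 or more compared members, below that of the 3 NR4A genes at 1.29. All 5 compared members were past 1.5-fold (100%, beside 4.15% of all genes), with a median log2 ratio of 1.2. Egr1, which is induced by MAP kinase through SRF, read 66.5 FPKM after PBS and 90.7 FPKM after ET-1, against 183 FPKM in the mutant. Egr2, a factor of hindbrain crest and Schwann cells, read 3.37, 3.82 and 9.04 FPKM, and Egr3 read 3.22, 2.82 and 10.9 FPKM. In wild type ET-1 left these 3 genes without a call, and the mutant was higher than the ET-1 wild type with adjusted p = 6.09e-10, 0.000113 and 9.47e-06 by the authors' deposited table. Nab1 and Nab2, which bind EGR proteins and limit their activity, read 6.31 and 6.18 FPKM in the mutant against 3.02 and 2.30 FPKM with PBS and 3.59 and 3.03 FPKM with ET-1. The mutant was the highest group in all 5 genes, and the test against the ET-1 wild type called the 3 EGR genes and neither NAB gene.

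The NR4A orphan nuclear receptors, rapid targets of calcium and cyclic AMP signals, split by member. Nr4a1 rose with ET-1 and stood at 3.15 FPKM after PBS and 10.4 FPKM after ET-1, against 9.14 FPKM in the mutant, 2.90-fold over PBS (2.59 to 3.27). Nr4a3 read 3.77, 7.26 and 12.8 FPKM and was higher in the mutant than with ET-1 in wild type, with adjusted p = 0.00123 by the authors' deposited table. Nr4a2 read 1.70, 3.04 and 1.54 FPKM, which put the mutant slightly below PBS and left it as the member that was not past 1.5-fold.

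The sequences before the start sites of Nr4a1, Nr4a3 and Egr2 are shown because these members were past 1.5-fold and hold letters that signal-responsive factors bind. They are RefSeq windows of build GRCm38.p6, each of 250 bases before to 50 after the start, printed on the strand of the gene. For Nr4a1 the window is chr15:101266596-101266895 on the plus strand, for Nr4a3 chr4:48045055-48045354 on the plus strand, and for Egr2 the middle of 5 listed starts, chr10:67537619-67537918 on the plus strand. Capitals mark TGACG on either strand, the core of the cyclic AMP response element, and in Egr2 also the CArG box, the letters bound by SRF.
Nr4a1: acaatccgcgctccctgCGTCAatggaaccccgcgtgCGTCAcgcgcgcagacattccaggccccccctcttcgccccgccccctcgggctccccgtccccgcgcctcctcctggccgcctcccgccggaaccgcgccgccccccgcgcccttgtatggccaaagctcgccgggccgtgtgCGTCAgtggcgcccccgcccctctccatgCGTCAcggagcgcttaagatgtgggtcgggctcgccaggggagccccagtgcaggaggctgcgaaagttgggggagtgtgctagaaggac
Nr4a3: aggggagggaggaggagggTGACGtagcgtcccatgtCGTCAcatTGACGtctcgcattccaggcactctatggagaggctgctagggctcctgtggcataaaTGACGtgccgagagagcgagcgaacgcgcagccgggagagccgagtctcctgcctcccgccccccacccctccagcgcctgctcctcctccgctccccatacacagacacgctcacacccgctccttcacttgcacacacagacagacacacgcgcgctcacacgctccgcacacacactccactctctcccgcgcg
Egr2: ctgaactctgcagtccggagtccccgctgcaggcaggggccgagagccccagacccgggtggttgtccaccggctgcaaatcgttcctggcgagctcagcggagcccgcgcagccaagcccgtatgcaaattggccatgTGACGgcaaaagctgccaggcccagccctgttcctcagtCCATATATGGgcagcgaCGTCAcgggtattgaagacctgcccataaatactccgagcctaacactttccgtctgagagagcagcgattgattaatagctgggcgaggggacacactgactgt

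The windows of Nr4a1 and Nr4a3 hold TGACG 4 times each and that of Egr2 holds it 2 times, counted on both strands. Of 8747 compared genes with a window in the table, 32.4% hold TGACG at least once and 0.629% hold it 4 times or more. Among the EGR, NAB, AP-1 and NR4A genes, 11 of 15 with a window hold it. Of ET-1-like risers with a window 9 of 26 hold it (34.6%), and of PBS-like ones 2 of 4. Among the same EGR, NAB, AP-1 and NR4A genes, a MEF2 box is in 3 of 15 (20%), beside 1.36% of compared genes, and a CArG box in 1 of 15. The authors' deposited table marks a MEF2 motif for both Nr4a1 and Nr4a3. The CArG box of Egr2 lies 72 to 63 bases before the start, and 1.31% of the compared genes hold such a box in this window. A match describes letters in the window and does not show that a factor was bound.

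The AP-1 factors are the FOS and JUN dimers with their ATF and MAF partners. Of 10 compared members, 4 were past 1.5-fold above PBS (40%, beside 4.15% of all genes). The list median was 0.47, beside 0.24 for ET-1 over PBS. Fos read 18.4 FPKM after PBS and 21.9 FPKM after ET-1, against 39.2 FPKM in the mutant, and Fosl2 read 1.10, 1.56 and 4.08 FPKM. Both were higher in the mutant than in the ET-1 wild type, with adjusted p = 0.000328 and 0.0341 by the authors' deposited table. Junb, at 5.48, 11.2 and 12.2 FPKM, and Atf3, a stress-induced partner, at 5.11, 8.83 and 12.1 FPKM, stood near or above the ET-1 level, although neither passed the test for ET-1 against PBS. Fosb, Fosl1, Jun, Jund, Maff and Mafk were within 1.5-fold of PBS. The FOS genes thus held members past the limit and within it.

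**Figure D3:**
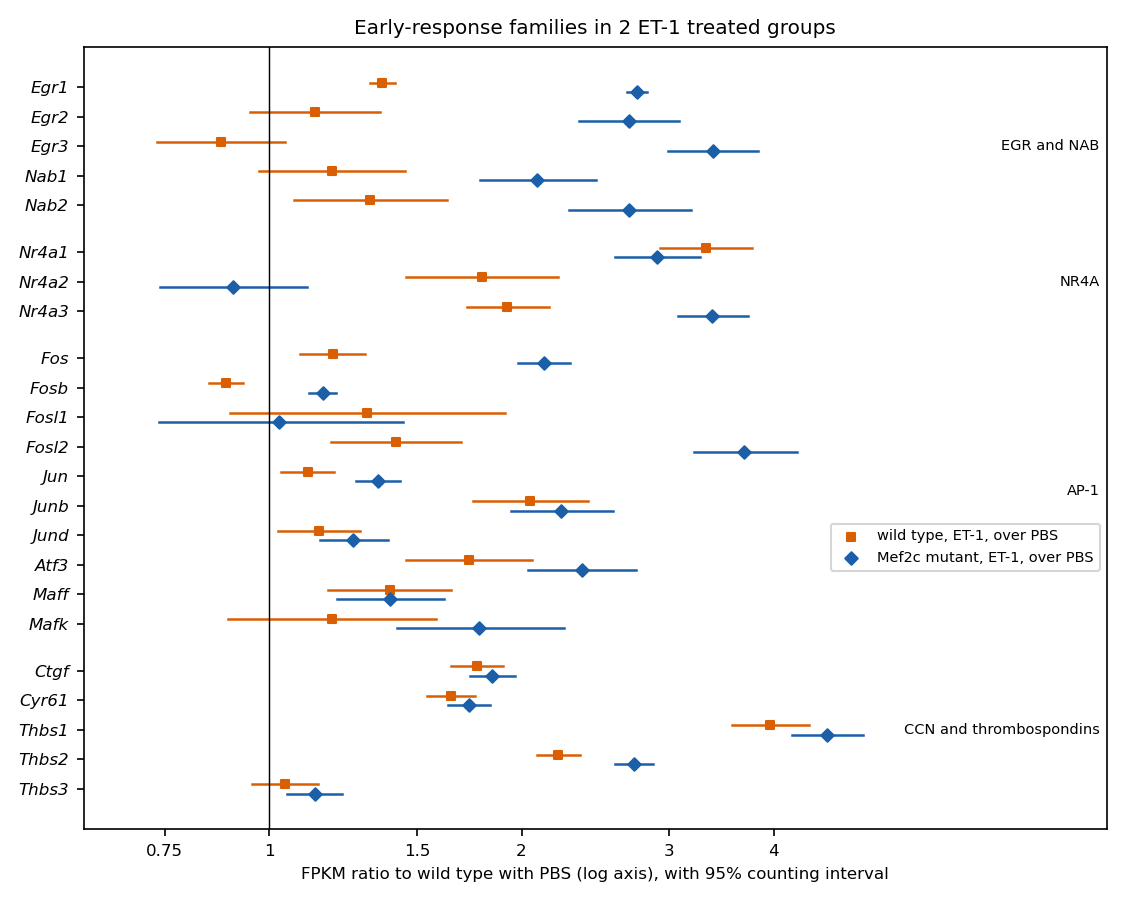
FPKM ratio to the PBS wild type on a log axis, with exact 95% counting intervals, for the ET-1 treated wild type (squares) and the ET-1 treated Mef2c mutant (diamonds) in the EGR and NAB, NR4A, AP-1, and CCN and thrombospondin families. The diamonds of Egr1, Egr2, Egr3, Fos and Fosl2 lie beyond the squares, those of Ctgf, Cyr61 and Junb overlap them, and that of Nr4a2 lies at the PBS level.

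Of 11 other immediate early genes, 5 were past 1.5-fold above PBS (45.5%, beside 4.15% of all genes) and 1 below (9.09%, beside 1.63%). Myc, a growth factor-induced regulator of biosynthesis, read 8.29 FPKM after PBS and 12.2 FPKM after ET-1, against 18.2 FPKM in the mutant. Zfp36, which destabilises cytokine messenger RNA, read 9.55, 17.7 and 18.4 FPKM, and Ier2 read 15.6, 22.3 and 33.7 FPKM. Arc, a synaptic immediate early gene, was low with 0.791, 1.88 and 4.27 FPKM, and it was higher in the mutant than with ET-1 (adjusted p = 0.0372 by the authors' deposited table). Srf itself read 16.5, 19.6 and 28.0 FPKM. Ier3, an apoptosis inhibitor, went the other way at 6.20, 5.51 and 3.07 FPKM, and Nfil3, a leucine zipper repressor, read 11.0, 16.6 and 8.70 FPKM and was lower in the mutant than with ET-1 (adjusted p = 0.000689 by the authors' deposited table).

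The CCN proteins and thrombospondins, secreted modulators of matrix and growth factor binding, stood near their ET-1 level. Of 5 compared members, 4 were past 1.5-fold above PBS (80%, beside 4.15% of all genes). The list median was 0.85 in the mutant and 0.79 with ET-1 in wild type. The 4 members that rose with ET-1 were all ET-1-like. Ctgf read 20.5 FPKM after PBS and 36.2 FPKM after ET-1, against 37.8 FPKM in the mutant, and Cyr61 read 33.8, 55.6 and 58.4 FPKM. Thbs2, an anti-angiogenic thrombospondin, read 9.83, 21.7 and 26.8 FPKM, 2.72-fold over PBS (2.58 to 2.87). In the order of the groups the mutant stood highest in Ctgf, Cyr61, Thbs1 and Thbs2, and in none of these 4 did it pass the test against the ET-1 wild type (lowest adjusted p = 0.711, in Thbs2, by the authors' deposited table). Thbs3 was level at 9.46, 9.86 and 10.7 FPKM.

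Actin genes and SRF targets were past 1.5-fold above PBS in 10 of 25 compared members (40%, beside 4.15% of all genes). They were below in 1 (4%, beside 1.63%). Their median was 0.54 in the mutant and 0.25 with ET-1, and after scaling 9 members were above. Myl9, the regulatory light chain of smooth muscle myosin, read 5.48 FPKM after PBS and 9.78 FPKM after ET-1, against 16.3 FPKM in the mutant, 2.97-fold over PBS (2.48 to 3.59). Tpm1, an actin-stabilising tropomyosin, read 16.2, 29.97 and 34.9 FPKM and had risen with ET-1. Vcl, the focal adhesion protein vinculin, read 29.1, 31.8 and 52.3 FPKM and Fhl2, a LIM domain partner of SRF, 0.569, 0.446 and 3.36 FPKM, and both were higher in the mutant than with ET-1 (adjusted p = 0.000821 and 0.00125 by the authors' deposited table). Csrp1, Cnn2, Tagln, Tagln2, Filip1l and Actn1 made up the 10, with mutant levels from 5.51 FPKM in Tagln to 29.9 FPKM in Tagln2, and Actn1 was within 1.5-fold after scaling. Actb and Actg1, the cytoplasmic actins, were level at 774 and 413 FPKM against 722 and 442 FPKM with PBS, and Acta2, smooth muscle actin, was low and below PBS at 1.85, 2.39 and 0.865 FPKM. All 9 members that stood 25% or more above PBS with ET-1 were ET-1-like, beside 60.1% of all such genes. The cardiac actin marker Actc1 was also above PBS, at 5.74 against 2.87 FPKM, and the part of muscle cells in these levels was not tested.

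Start windows of Cyr61, Myl9 and Thbs2 are shown for these secreted and contractile genes, again from RefSeq in build GRCm38.p6. The window of Cyr61, listed there as Ccn1, is chr3:145649936-145650235 on the minus strand, that of Myl9 is chr2:156775214-156775513 on the plus strand, and that of Thbs2 is chr17:14694213-14694512 on the minus strand. Capitals mark GGAATG on either strand in Cyr61, the element bound by TEAD factors, a CArG box in Myl9 and a MEF2 box in Thbs2.
Cyr61: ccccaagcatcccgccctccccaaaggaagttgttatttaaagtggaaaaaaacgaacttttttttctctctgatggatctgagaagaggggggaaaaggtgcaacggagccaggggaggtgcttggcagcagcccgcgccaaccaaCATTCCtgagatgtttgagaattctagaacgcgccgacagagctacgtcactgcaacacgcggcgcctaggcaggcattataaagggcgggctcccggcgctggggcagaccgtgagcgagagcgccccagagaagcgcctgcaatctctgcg
Myl9: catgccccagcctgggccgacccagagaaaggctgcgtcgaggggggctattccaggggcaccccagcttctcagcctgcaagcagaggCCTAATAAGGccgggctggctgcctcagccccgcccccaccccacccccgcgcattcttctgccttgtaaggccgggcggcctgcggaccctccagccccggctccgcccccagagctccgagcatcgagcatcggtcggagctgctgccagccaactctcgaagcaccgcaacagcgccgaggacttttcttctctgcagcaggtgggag
Thbs2: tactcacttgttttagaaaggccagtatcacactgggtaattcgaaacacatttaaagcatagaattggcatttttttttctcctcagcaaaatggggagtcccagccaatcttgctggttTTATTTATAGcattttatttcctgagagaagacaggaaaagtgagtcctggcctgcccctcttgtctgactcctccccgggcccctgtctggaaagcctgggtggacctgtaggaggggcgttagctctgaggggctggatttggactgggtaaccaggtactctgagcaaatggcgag

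GGAATG on either strand is in 11.7% of the compared genes with a window and in 10 of 26 ET-1-like risers with one. It is also in 1 of 4 PBS-like risers with a window and in 0 of 5 between. The copy in Cyr61 lies 103 to 98 bases before the start. The CArG box of Myl9 lies 161 to 152 bases before the start, and 7 of 23 actin genes and SRF targets with a window hold one, beside 1.31% of compared genes. SRF targets are recognised partly by such boxes, so the list was not chosen independently of them. Thbs2 kept its level in the mutant with a MEF2 box 129 to 120 bases before the start, a box that 1.36% of compared genes hold, while the authors' deposited table marks no MEF2 motif for this gene. Of the 26 ET-1-like risers with a window, 2 hold a MEF2 box, and of 4 PBS-like risers 0 do, in a window that leaves out enhancers farther away.

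Feedback inhibitors and ETS targets of the MAP kinase pathway were past 1.5-fold above PBS in 7 of 20 compared members (35%, beside 4.15% of all genes). Their median was 0.48 in the mutant and 0.24 with ET-1. Dusp6, the phosphatase that switches off ERK, read 18.4 FPKM after PBS and 31.6 FPKM after ET-1, against 40.7 FPKM in the mutant, 2.22-fold over PBS (2.08 to 2.36). Dusp5, its nuclear relative, read 4.70, 5.19 and 10.3 FPKM, and Errfi1, an inhibitor of the EGF receptor, 17.0, 16.9 and 28.0 FPKM. Dusp5 and Errfi1 were higher in the mutant than with ET-1 (adjusted p = 0.0107 and 0.00255 by the authors' deposited table). Spred2 and Etv5 read 22 and 11.6 FPKM in the mutant, 18.2 and 9.82 FPKM with ET-1 and 13 and 6.24 FPKM with PBS, and 24.5% of the sequence of Etv5 is shared with other genes. Spry1 and Spry4, the Sprouty inhibitors past the limit, parted: Spry1 read 0.704, 1.11 and 1.86 FPKM, whereas Spry4 read 1.68, 5.42 and 3.52 FPKM and lost part of its ET-1 level. Dusp4, Dusp7, Dusp10, Dusp14 and Dusp16 were within 1.5-fold of PBS.

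Of 17 crest transcription factors, 5 were past 1.5-fold above PBS (29.4%, beside 4.15% of all genes), and 3 remained so after scaling. Beside Sox10, Tcfap2b and Ets1 these were Sox8, at 4.93, 5.81 and 8.45 FPKM, and Snai1, a repressor of E-cadherin, at 4.73, 6.01 and 8.06 FPKM, and the last 2 were within 1.5-fold after scaling. Foxd3 at 14.0 FPKM against 14.5 FPKM with PBS, Sox9 at 25.7 against 21.8 FPKM and Pax3 at 45 against 34.8 FPKM stayed within 1.5-fold. Of the crest growth factor receptors, 3 of 15 were past 1.5-fold above PBS (20%, beside 4.15% of all genes). These were Gfra3, Gfra1 (8.81, 12.0 and 14.5 FPKM) and Ngfr, and only Gfra3 after scaling. Kit, the receptor of melanoblasts, read 12.9 FPKM after PBS and 15.2 FPKM after ET-1, against 9.51 FPKM in the mutant and was lower than with ET-1 (adjusted p = 0.000587 by the authors' deposited table). Cdh19, a cadherin of glial precursors, read 2.12, 5.29 and 2.67 FPKM, near PBS in the mutant, with an adjusted p = 0.0184 against ET-1 and 0.0589 for ET-1 against PBS by the authors' deposited table. Markers of crest lineages were therefore split between ET-1-like and PBS-like levels.

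Cadherins and adhesion proteins of the immunoglobulin family were past 1.5-fold above PBS in 6 of 21 members (28.6%, beside 4.15% of all genes). After scaling 4 were, which left Cdh6 and L1cam within the limit. Beside Mcam, Pcdh1 and Cdh6, L1cam, which guides migrating crest and axons, read 6.39, 9.12 and 10.7 FPKM. Its relative Chl1 read 3.92, 4.58 and 7.68 FPKM and Pcdh19 1.57, 1.89 and 3.24 FPKM, and these 2 were higher in the mutant than with ET-1 (adjusted p = 0.00897 and 0.0448 by the authors' deposited table). In the list of matrix proteases and their inhibitors, 4 of 22 were past 1.5-fold above PBS (18.2%, beside 4.15% of all genes). These were Adam19 and the inhibitors Timp1, Timp2 and Timp3, with Timp2 within 1.5-fold after scaling. Timp1 read 1.36, 1.14 and 3.19 FPKM. Integrins and laminins held 1 of 22 members above (4.55%, near the 4.15% of all genes), Nid2, which was within 1.5-fold after scaling. They held 1 below, Frem1 (4.55%, beside 1.63% of all genes).

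The MEF2 genes and class IIa histone deacetylases were a list that did not stand at its ET-1 level in the mutant. None of its 8 compared members was past 1.5-fold from PBS, beside 4.15% above and 1.63% below among all genes. The median was 0.04 in the mutant, -0.03 after scaling, against 0.23 with ET-1. Hdac5 read 9.59 FPKM after PBS and 11.8 FPKM after ET-1, against 8.27 FPKM in the mutant, and Mef2d read 13.3, 16.2 and 11.8 FPKM. Both were lower in the mutant than with ET-1, with adjusted p = 0.0114 and 0.0441 by the authors' deposited table. Hdac7 read 5.20, 7.14 and 5.32 FPKM, the same order without a call. Of the 2 members that stood 25% or more above PBS with ET-1, Mef2c and Hdac7, both were PBS-like. Mef2c is the mutated gene itself, so its level in the mutant cannot be told apart from the deletion. That leaves Hdac7 among the compared members, which had no call. The list also holds the coactivator gene Ppargc1a, which was under 1 FPKM in both groups of the pair and was not compared. Ppargc1a read 0.936, 2.03 and 0.688 FPKM, without a call for ET-1 against PBS. It was lower in the mutant than with ET-1 (adjusted p = 0.000449 by the authors' deposited table). Mef2a, at 15.4, 16.7 and 20.6 FPKM, was the MEF2 gene that stood highest in the mutant.

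Receptors and G proteins of the endothelin pathway were within 1.5-fold of PBS. The 3 compared ligand and receptor genes had a median log2 ratio of 0.28, above the 0.09 of all genes, and of 0.25 with ET-1. Ednra, the receptor that ET-1 uses in the arches, read 3.45 FPKM after PBS and 3.85 FPKM after ET-1, against 4.88 FPKM in the mutant, and Ednrb, the receptor of pigment and enteric crest, 62.7, 74.7 and 76.6 FPKM. Of 21 G protein, RGS and phospholipase C genes 0 were past 1.5-fold in either direction, beside 4.15% above and 1.63% below among all genes. In the arch patterning list 6 of 19 members could be compared, with a median of -0.32 in the mutant and -0.38 with ET-1. Dlx2 read 5.76, 3.40 and 3.72 FPKM, whereas Dlx3, Dlx4, Dlx5, Dlx6 and Hand2, the ventral arch genes downstream of endothelin, had no FPKM to compare.

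Of 11 compared Notch targets and modifiers, 3 were past 1.5-fold above PBS in the mutant (27.3%, beside 4.15% of all genes). The median log2 ratio of the 11, 0.09, was that of all genes. Hes5, a repressor of neurogenesis, read 18.9 FPKM after PBS and 14.1 FPKM after ET-1, against 45.4 FPKM in the mutant, 2.40-fold over PBS (2.21 to 2.62). Heyl read 11.8, 15.8 and 30.3 FPKM and Hes1 26, 29.4 and 52.3 FPKM. All 3 were higher in the mutant than with ET-1 (adjusted p = 2.43e-14, 1.83e-06 and 0.000824 by the authors' deposited table). Heyl and Hes1 also stood above PBS with ET-1 in wild type, without a call. The whole list of 18 compared members had a median of 0.09, and of -0.01 after scaling. The receptor and ligand genes Notch1, Dll1 and Jag1 read 21.5, 22.3 and 11.4 FPKM in the mutant against 21.2, 18.6 and 11.0 FPKM with PBS.

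Single members of other pathways stood apart in the mutant. Prdm12, a chromatin factor of pain-sensing neurons, read 5.90 FPKM after PBS and 6.4 FPKM after ET-1, against 18.6 FPKM in the mutant, 3.16-fold over PBS (2.79 to 3.58), and was higher than with ET-1 (adjusted p = 1.84e-08 by the authors' deposited table). It was the 1 of 21 sensory neurogenesis genes past 1.5-fold above PBS (4.76%, near the 4.15% of all genes). In that list Nhlh1, at 39.0, 30.4 and 24.4 FPKM, was past 1.5-fold below, and the median was -0.21, against -0.39 with ET-1. Neurod1, Pou4f1 and Eya2 lay in the mutant between their ET-1 and PBS levels, at 9.86, 13.4 and 11.4 FPKM. The secreted WNT antagonists Frzb (3.49, 2.29 and 6.36 FPKM) and Sfrp5 (1.54, 2.23 and 4.77 FPKM), the WNT effector Tcf7 (14.7, 20.1 and 24.8 FPKM), the BMP antagonist Grem1 (0.908, 1.05 and 2.60 FPKM) and Id4 (1.87, 2.41 and 4.81 FPKM) were past 1.5-fold above PBS. Frzb was higher than with ET-1 by the test (adjusted p = 0.000108 by the authors' deposited table), while the other 4 were not called.

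Some hedgehog and retinoic acid targets stood below PBS, while the medians of both lists were at 0.10 and 0.12. Gli1 and Hhip, a decoy receptor induced by hedgehog signals, were the 2 of 11 hedgehog genes past 1.5-fold below PBS (18.2%, beside 1.63% of all genes). Hhip read 5.37 FPKM after PBS and 3.73 FPKM after ET-1, against 3.23 FPKM in the mutant, and Ptch1, the receptor and a target, read 35.6, 28.4 and 23.6 FPKM, a log2 ratio of -0.58 just inside the limit. Cyp26a1, which degrades retinoic acid, read 7.94, 4.85 and 2.90 FPKM, and Cyp26c1 read 2.94, 1.6 and 0.768 FPKM. In each of these 4 genes the ET-1 wild type lay between PBS and the mutant, with no call for ET-1 against PBS. The synthesis gene Aldh1a2 read 35.3, 36.1 and 50.8 FPKM.

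Genes of hypoxia and glycolysis had a median near PBS with ET-1 and below PBS in the mutant. Its 27 members had a median of -0.24 in the mutant and 0.01 with ET-1. Ankrd37, Bnip3 and Ddit4 were the 3 members past 1.5-fold below PBS (11.1%, beside 1.63% of all genes), and 5 were after scaling. Ankrd37, a target of hypoxia-inducible factor, read 10.2, 7.85 and 3.93 FPKM, and Ddit4, an inhibitor of mTOR, read 48.2, 42.9 and 26.4 FPKM. Bnip3, a mitophagy receptor, read 55.7, 45.1 and 30.1 FPKM, with 16.5% of its sequence shared with other genes. Ddit4 and Bnip3 were lower in the mutant than with ET-1 (adjusted p = 0.000844 and 0.00305 by the authors' deposited table). They were among 7 of the 27 members that were lower, beside 3.75% of all genes tested. Car9, another target, was above PBS at 1.22, 1.67 and 2.52 FPKM.

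Matrix and housekeeping lists were mixed. Of 15 collagens, 3 were past 1.5-fold below PBS (20%, beside 1.63% of all genes) and 1 above (6.67%, beside 4.15%). Those below were the fibrillar genes Col1a1 (2.65, 2.11 and 1.18 FPKM), Col3a1 (1.96, 1.94 and 0.781 FPKM) and Col5a2 (5.75, 6.88 and 3.23 FPKM). Col3a1 and Col5a2 were lower in the mutant than with ET-1 (adjusted p = 0.000723 and 7.56e-08 by the authors' deposited table), whereas their relative Col5a1 was among the genes between, at 5.91, 12.1 and 9.13 FPKM. The 32 ribosomal protein genes had a median of -0.19 in the mutant and -0.19 with ET-1. Of 12 genes of the mitochondrial genome 3 were above PBS (25%, beside 4.15% of all genes) and 3 below (25%, beside 1.63%). Of these, mt-Nd1 read 605, 642 and 1113 FPKM, while mt-Nd6, encoded on the other strand, read 1638, 1627 and 711 FPKM. Replication and mitosis genes had a median of 0.20 with Ccne2, a cyclin of S phase entry, past 1.5-fold at 5.99, 7.59 and 12.5 FPKM. The 20 respiratory chain genes of the nucleus held 0 members past 1.5-fold, beside 4.15% above and 1.63% below among all genes.

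Among genes with at least 5 FPKM in either group, the 12 largest ratios above PBS were led by Thbs1 and included Npff, Ccl19, Gfra3, Duxbl, Nr4a3, Prdm12, Egr3, Egr1, Myl9, Mcam and Thbs2. Npff, a neuropeptide precursor, read 0.947 FPKM after PBS and 2.06 FPKM after ET-1, against 5.01 FPKM in the mutant, and 28.0% of its sequence is shared with other genes. Ccl19 and Duxbl, at 6.44 and 9.10 FPKM in the mutant, share 52% and 93.5%, so the split of reads with their copies is uncertain. In 11 of the 12 the mutant was the highest group, and Gfra3 was the exception.

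**Figure D4:**
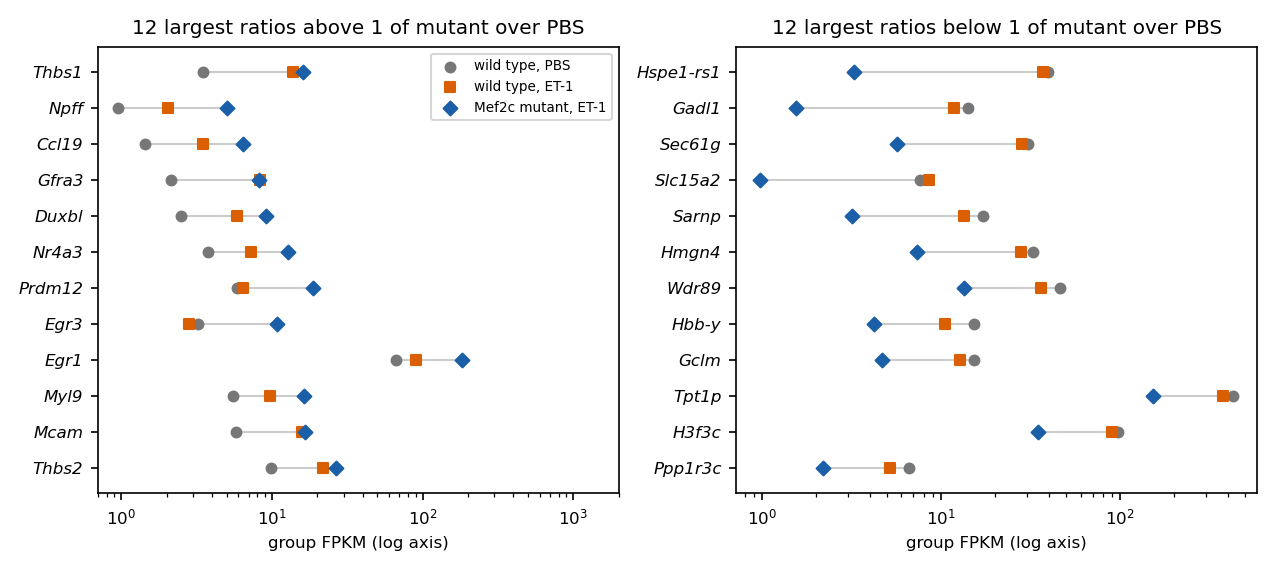
Group FPKM on a log axis for the 12 largest ratios above 1 (left) and below 1 (right) of the ET-1 treated mutant over the PBS wild type, with circles for PBS, squares for ET-1 in wild type and diamonds for the mutant. On the left the squares of Thbs1, Gfra3, Mcam and Thbs2 lie near the diamonds, and on the right the squares of 12 genes lie nearer to the circles than to the diamonds.

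The 12 largest ratios below PBS held 5 models that the reference annotation types as processed pseudogenes and 1 gene, Sec61g, without a match in it. The 6 genes with 10% or more of shared sequence were those 5 models and Wdr89. The others, Gadl1, Slc15a2, Hbb-y, Gclm and Ppp1r3c, were protein-coding genes with less than 10% of shared sequence. Of the protein-coding genes with little shared sequence, Gadl1, an amino acid decarboxylase of the taurine family, read 14.1 FPKM after PBS and 11.8 FPKM after ET-1, against 1.54 FPKM in the mutant, 0.110 of PBS (0.0961 to 0.125). Slc15a2, a peptide transporter, read 7.63, 8.52 and 0.972 FPKM, 0.127 of PBS (0.112 to 0.144). Gclm, the modifier subunit of glutathione synthesis, read 15.2, 12.7 and 4.65 FPKM, and Ppp1r3c, a regulator of glycogen, 6.62, 5.2 and 2.2 FPKM. In these 4 genes the ET-1 wild type stood near PBS and the mutant was lower than it, with adjusted p from 4.38e-27 in Slc15a2 to 0.00396 in Ppp1r3c in the authors' deposited table. They differ from the ET-1-like genes in that both wild-type groups stood together.

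Markers of other cells were checked in the same 3 groups. Of 10 crest markers 9 could be compared and 4 were past 1.5-fold above PBS (44.4%, beside 4.15% of all genes). Of the 9, 7 stood above PBS, and the lowest log2 ratio was -0.37. The crest list had a summed FPKM of 199 after PBS, 289 after ET-1 and 309 in mutant cells. Since 5 of the 9, with all 4 past the limit, rose with ET-1 in wild type, these levels do not measure crest content apart from the ET-1 response. The mesenchymal marker Prrx1 was under 1 FPKM in each group. Of 6 erythroid genes 4 were past 1.5-fold below PBS (66.7%, beside 1.63% of all genes), and Hbb-y, embryonic beta globin, read 15.2, 10.5 and 4.22 FPKM. The summed FPKM of the erythroid list was 35 after PBS, 33.5 after ET-1 and 18.4 in mutant cells. Of 4 compared epithelial markers, Epcam was below PBS at 1.76, 1.13 and 0.649 FPKM and Krt19 above it at 0.877, 2.29 and 2.06 FPKM, and Krt8 and Krt18 were within 1.5-fold. Actc1, the cardiac actin and the 1 cardiac marker compared, was past 1.5-fold above PBS at 2.87, 4.59 and 5.74 FPKM. Cd68, a lysosomal marker of macrophages, read 5.70, 5.54 and 12.4 FPKM and H2-Ab1, a class II histocompatibility chain, 3.15, 2.83 and 9.40 FPKM, while H2-Eb1, another class II chain, read 0.633, 1.55 and 0.489 FPKM. The macrophage receptor Csf1r read 0.523, 0.413 and 0.834 FPKM, under 1 in each group but 1.59 times the PBS value in the mutant (1.253 to 2.044). Aif1 was listed at 0 in the mutant and was under 1 FPKM in wild type, and Ptprc and Emr1 had no FPKM to compare. The neural tube markers Sox2 and Pax6 were within 1.5-fold of PBS at 37.0 and 11.7 FPKM in the mutant. The 1 compared endothelial marker, Egfl7, read 1.65, 1.66 and 1.18 FPKM. Other endothelial markers were under 1 FPKM in each group. Pecam1 and Cdh5 stood in the mutant at 0.265 (0.172 to 0.403) and 0.317 (0.187 to 0.532) of PBS, while Kdr was level at 0.986 (0.719 to 1.37). The 2 compared mesoderm markers were within 1.5-fold of PBS. The part of other cells in the levels above was not tested.

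The names left out of the comparison behaved differently from the genes kept. Of 63 Hist genes 43 were past 1.5-fold below PBS in the mutant (68.3%, beside 1.63% of the genes kept). The median FPKM of the Hist genes was 120 after PBS, 125 after ET-1 and 65.1 in mutant cells. Of 1121 processed pseudogenes of the reference annotation, under any name, 459 were below (40.9%). Among the 10958 genes kept, 842 share 10% or more of their sequence, and 34 of these were above and 33 below PBS. The depth of the mutant group, 2.18 times that of PBS, differed in the same comparison, and its part in these values was not tested.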

How the data were processed

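RNA of sorted crest cells was extracted with an RNeasy Micro kit, amplified with NuGEN Ovation RNA-Seq V2 and made into libraries with an Encore kit, per the labels' protocols. TopHat 1.3.1, Cufflinks 1.3.0, Cuffdiff and the mm9 build come from the submitters' processing notes. Per the file headers, the authors deposited 1 FPKM value per group, an unadjusted p-value for each of the 2 comparisons that involve the ET-1 wild type, and, for a list of induced genes, a fold and marks of a MEF2 motif and of MEF2C dependence. The sources used here do not give how replicates were combined. There were 0 columns of other samples.

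Genes with whole-number values and a p of 1 were treated as raw reads and left out, and names of small RNA families were left out beside those of pseudogenes, clone models and Hist genes. Ratios used a pseudocount of 1 FPKM. Whole reads within 0.02 were recovered for 92.4% to 92.7% of single-exon genes, and for 99.6% of 16402 genes with an exon length. Clopper-Pearson intervals at 95% came from scipy 1.17.1. The fold limit and intervals were checked on simulated reads. Genes named are the 12 largest ratios in each direction at 5 FPKM or more, those called for ET-1 against PBS, members of 53 lists past 1.5-fold, and relatives needed for contrast. Members and lists were chosen with earlier results of these data known. Shared sequence is the percentage of 50-base words of a gene found in another gene. Since the tables held group values, the planned fit per sample was not made.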

Additional observations from a re-analysis of the deposited data

How the results depend on the processing

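The number of genes past the limit depended on its setting: 808 above and 337 below PBS with a pseudocount of 0.1, 282 and 97 at 5 FPKM or more, 61 and 28 at 2-fold, and 298 and 285 with each group scaled to a median log2 ratio of 0. With risers taken from the authors' deposited list, 225 of 320 were ET-1-like and 29 PBS-like. Under the other settings tried, of which a minimum of 1 FPKM in any group and a limit of 10% shared sequence were chosen after seeing the data, the numbers above and below PBS were within 1.5 times of 455 and 179, and the ET-1-like and PBS-like risers ranged over 30 to 43 and 6 to 9. Of 173 named genes under the smaller pseudocount and the scaling, 24 values came inside 1.5-fold, 3 went past it and 0 changed direction. Of 48 lists, 7 medians changed sign with the scaling and 1 with the smaller pseudocount. Replicates could not be left out, since the table held group values. No paired analysis was possible because no value per sample and no shared replicate number was given. Genes under 1 FPKM rest on fewer than 19.8 to 21.5 reads per kilobase in wild type, which limits ratios such as that of Tmem121.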
